A study of Mus musculus with 6 samples.

Results

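The phagocyte NADPH oxidase is the enzyme with which macrophages, monocytes and neutrophils make superoxide. Its subunit genes Cybb, Cyba, Ncf1, Ncf4, Rac1 and Rac2 are described here, taken by symbol as 6 of the 21965 genes in a table of RNA sequencing counts. Interstitial macrophages, which sit in the walls around the air spaces, had been isolated by antibody staining from digested lungs of C57Bl/6 mice that were 6 to 8 weeks old and kept free of specific pathogens. In the WGP group the mice had been injected into the peritoneum with 1 mg of WGP, a particulate β-glucan of the kind found in yeast cell walls, and in the PBS group with phosphate-buffered saline. Treatment is given as lasting 6 days in both groups and the lungs were taken on day 7. The labels name no altered gene and no tumour cells for these libraries. There were 3 WGP and 3 PBS libraries, and the labels do not say if mice were pooled. The p-values therefore set the group difference against the scatter of these libraries, which may be partly technical and need not be that between mice. The study used the β-glucan to train lung macrophages before tumour cells seed the organ. The comparison gives the transcript levels of the cells isolated after WGP and after PBS, and the mix of cells may differ between them.

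At rest the oxidase is kept in separate pieces. Cybb (gp91phox, the catalytic chain that carries electrons from NADPH to oxygen) and Cyba (p22phox, its stabilising partner) form a flavocytochrome in the membrane, while Ncf1 (p47phox, the organiser that is phosphorylated on activation) and Ncf4 (p40phox, which binds phosphoinositide lipid on phagosomes) wait in the cytosol. On stimulation, for example when the β-glucan receptor dectin-1 is engaged, these pieces and a GTP-bound Rac protein join the flavocytochrome. Rac2 is the Rac protein of blood cells and Rac1 is made in nearly all cells. Loss of Cybb, Cyba, Ncf1 or Ncf4 function causes chronic granulomatous disease in humans.

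The regions just before the transcription starts of 3 of the 6 genes were in the RefSeq promoter table of GRCm38.p6, namely Cybb (chrX:9469295-9469574), Ncf1 (chr5:134229596-134229875) and Cyba (chr8:122432911-122433190), all on the minus strand. The RefSeq start of Cybb is also that of 1 GENCODE transcript, while another GENCODE transcript begins 18447 bases further upstream and sets the wider gene interval given for Cybb here. The starts of Ncf1 are the same in both annotations and those of Cyba are 10 bases apart. Ncf4, Rac1 and Rac2 had no entry in the RefSeq table. A link between the promoter letters and the changes of the members was not tested. The 3 promoters are given as sequence only. Each covers 250 bases before and 30 bases after the start, written 5′ to 3′, and capitals mark every match, on either strand, to the PU box GAGGAA, the ETS-IRF composite (GGAA and GAAA with 2 bases between), the IRF repeat (GAAA and GAAA with 2 bases between) or CCAAT.
Cybb: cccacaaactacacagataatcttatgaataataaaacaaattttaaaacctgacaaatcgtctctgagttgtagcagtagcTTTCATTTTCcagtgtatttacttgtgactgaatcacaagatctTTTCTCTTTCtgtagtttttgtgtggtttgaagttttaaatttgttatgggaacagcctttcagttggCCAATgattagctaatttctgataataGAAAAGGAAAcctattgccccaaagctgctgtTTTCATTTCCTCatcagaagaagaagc
Ncf1: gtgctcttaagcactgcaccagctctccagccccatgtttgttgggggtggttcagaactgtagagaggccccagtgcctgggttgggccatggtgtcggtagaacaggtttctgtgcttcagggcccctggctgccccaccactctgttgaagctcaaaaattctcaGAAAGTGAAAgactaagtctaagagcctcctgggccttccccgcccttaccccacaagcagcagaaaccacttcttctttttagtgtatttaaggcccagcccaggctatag
Cyba: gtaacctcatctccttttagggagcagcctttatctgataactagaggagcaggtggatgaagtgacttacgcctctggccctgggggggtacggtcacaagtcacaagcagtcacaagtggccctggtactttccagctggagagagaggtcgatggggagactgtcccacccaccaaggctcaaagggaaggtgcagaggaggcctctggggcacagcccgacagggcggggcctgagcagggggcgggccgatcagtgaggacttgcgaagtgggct

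PU.1, encoded by Spi1, is known to bind PU boxes and, together with IRF factors such as IRF8, ETS-IRF composites. In the Cybb window 1 composite match lay at bases 4 to 13 after the start and overlapped a PU box match at bases 10 to 15. A CCAAT match lay at -56 to -52, and 3 IRF repeats lay at -168 to -159, -124 to -115 and -29 to -20. The Ncf1 window held 1 IRF repeat, at -82 to -73, and the Cyba window held none of the 4 motifs. Of 32841 RefSeq promoters cut to the same 280 bases, 2.55% held the composite, 3.28% the IRF repeat, 26.0% the PU box and 36.1% CCAAT. A match is a string of letters and not a shown binding site.

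The libraries held 18254678 to 20346517 counts, and levels are CPM, read counts relative to the TMM-scaled library size, given as mean ± SD with n = 3. WGP and PBS libraries lay apart on principal component 1 (64.7% of the variance), and WGP replicate 1 lay apart from the other WGP libraries on component 2 (13.8%). Y-linked transcripts summed to 230.3, 207 and 221 CPM in WGP replicates 1, 2 and 3, and to 114, 179 and 10.7 CPM in PBS replicates 1, 2 and 3 (the labels give no sex). Of 12305 genes tested, 31% changed at an adjusted p under 0.05, 15.2% higher and 15.7% lower after WGP. With library sizes alone as the scaling the higher genes were 33.4% of those changed, against 49.2%, and with upper quartile scaling 40.0%. When PBS replicate 1 was left out 2491 genes changed, against 3809 with all libraries. Of 16 interstitial macrophage markers 3 rose, 4 fell and 9 did not pass, with a median log2 fold change of -0.56. These calls compare the groups and cannot check the labelled cell type. Csf1r, the growth factor receptor of macrophages, had 2942 to 2988 CPM after WGP and 2228 to 2586 CPM after PBS, and rose with Cx3cr1 and Fcgr1. Mertk (17 to 24.5 CPM after WGP, 126 to 199 CPM after PBS), Mrc1 (129 to 285 CPM after WGP, 712 to 907 CPM after PBS), Apoe and Ms4a7 fell. Transcripts known from nonclassical monocytes were present too, with Nr4a1 at 2984 to 3962 CPM after WGP and 3333 to 4025 CPM after PBS.

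Transcripts of most oxidase subunits were higher after WGP. Of the 6 members 5 rose (Cybb, Cyba, Ncf1, Ncf4 and Rac2) and none fell, and Rac1 did not pass the test. Of all tested genes 15.2% were higher, and of the 2271 with a mean of at least 100 CPM, as all 6 members had, 38.6% were higher and 11.1% lower. The median log2 fold change of the members was 0.55, against -0.021 for all tested genes. The same 5 members had all 3 WGP libraries above all 3 PBS libraries, an order seen for 23.2% of tested genes (the opposite order for 24.9%). The 6 genes together took 0.502%, 0.506% and 0.507% of the counts in WGP replicates 1, 2 and 3, and 0.360%, 0.369% and 0.392% in PBS replicates 1, 2 and 3. Bulk libraries cannot tell more cells of a type from more RNA per cell.

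**Figure D1:**
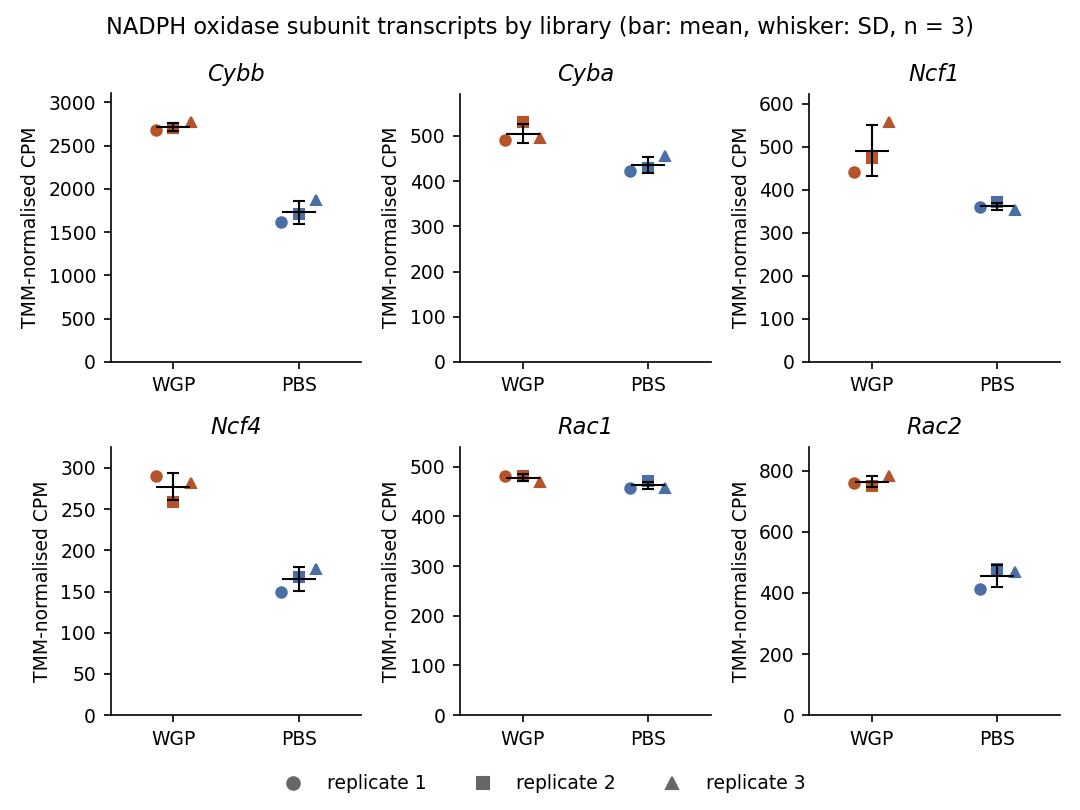
Level of each of the 6 subunit transcripts in TMM-normalised CPM (vertical axes from 0) in the 3 WGP and 3 PBS libraries, with the mean and SD. The groups are apart for Cybb, Ncf1, Ncf4 and Rac2, close together for Cyba, and overlap for Rac1.

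Cybb (ENSMUSG00000015340, chromosome X, 9435252 to 9487771), the catalytic chain, had 2678, 2704 and 2769 CPM in WGP replicates 1, 2 and 3, and 1612, 1707 and 1871 CPM in PBS replicates 1, 2 and 3. The lowest WGP library lay well above the highest PBS library, and the WGP libraries differed little among themselves. Its log2 fold change was 0.65 ± 0.07 (SE, 1.57-fold, adjusted p = 0.00014). Among the PBS libraries Cybb, Cyba and Ncf4 were highest in replicate 3, the library with the fewest Y-linked counts. With a Y-linked covariate in the fit 5 members were called, but the Y-linked level did not overlap between the groups, so the covariate and the treatment cannot be fully told apart. Reads of Cybb made up 51.7% to 52.1% of the reads of the 6 members after WGP and 47.1% to 49.4% after PBS.

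Cyba (ENSMUSG00000006519, chromosome 8, 122424776 to 122432930), the smaller membrane chain that Cybb needs to be stable, had 490.1, 530.4 and 496 CPM in WGP replicates 1, 2 and 3, and 423, 430.2 and 456 CPM in PBS replicates 1, 2 and 3. The groups did not overlap, but the gap between them was smaller than for the other members that rose. The log2 fold change was 0.21 ± 0.07 (1.16-fold, adjusted p = 0.036). The call held without PBS replicate 3 but was lost without WGP replicate 1 (adjusted p = 0.051), WGP replicate 2 (0.108), WGP replicate 3 (0.069), PBS replicate 1 (0.144) or PBS replicate 2 (0.102). Blocking on the replicate number also ended it (0.0586), as did upper quartile scaling (0.13) and library sizes alone (0.239), where the log2 fold change was 0.11.

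The cytosolic subunits rose by different amounts. Ncf4 (ENSMUSG00000071715, chromosome 15, 78244801 to 78262580) had 291, 259 and 281 CPM in WGP replicates 1, 2 and 3, and 149, 168 and 178 CPM in PBS replicates 1, 2 and 3. Every WGP library exceeded every PBS library, and the log2 fold change was 0.75 ± 0.08 (1.68-fold, adjusted p = 0.00013). Ncf1 (ENSMUSG00000015950, chromosome 5, 134220053 to 134229625) had 442, 475 and 557 CPM in WGP replicates 1, 2 and 3, and 360.3, 371 and 353 CPM in PBS replicates 1, 2 and 3. The WGP libraries were spread more widely than the PBS libraries for this gene, with replicate 3 highest. Its log2 fold change was 0.44 ± 0.09 (1.36-fold, adjusted p = 0.0034). Exons of Ncf1 overlap those of Gtf2ird2 on the other strand, a gene at 9.51 ± 2.36 CPM after WGP and 11.1 ± 0.82 CPM after PBS.

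The Rac genes differed in their response. Rac2 (ENSMUSG00000033220, chromosome 15, 78559167 to 78572783), the GTPase of the blood lineage, had 759.8, 748 and 784 CPM in WGP replicates 1, 2 and 3, and 413, 479 and 469.5 CPM in PBS replicates 1, 2 and 3. The groups were far apart, and its log2 fold change of 0.75 ± 0.08 (1.68-fold, adjusted p = 7.6e-05) had the smallest p of the members. Rac1 (ENSMUSG00000001847, chromosome 5, 143503634 to 143528036), the widely expressed form, had 481, 482 and 470.0 CPM in WGP replicates 1, 2 and 3, and 458, 470.3 and 458 CPM in PBS replicates 1, 2 and 3. The groups overlapped by a fraction of a CPM, and the SD was below 2% of the mean in each group. The log2 fold change of Rac1 was 0.05 ± 0.06 (adjusted p = 0.60, 95% interval -0.09 to 0.19), and its sign turned under upper quartile scaling (-0.012) and with library sizes alone (-0.054). Exons of Rac1 overlap those of Daglb, a lipase gene on the other strand at 106 ± 5.92 CPM after WGP and 94.3 ± 4.52 CPM after PBS.

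**Figure D2:**
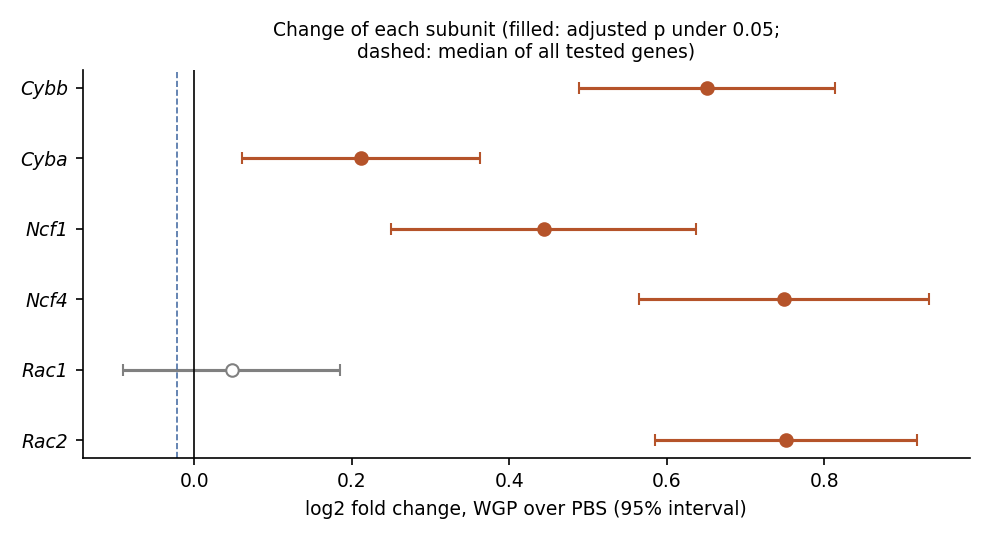
Log2 fold change of WGP over PBS on the horizontal axis, with its 95% interval, for the 6 members. Rac2 and Ncf4 lie furthest right at 0.75, Cyba at 0.21, and the interval of Rac1 spans 0.

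Ratios of 2 genes within a library do not depend on the scaling. The count ratio of Rac2 to Rac1 was 1.58, 1.55 and 1.67 in WGP replicates 1, 2 and 3, and 0.902, 1.02 and 1.03 in PBS replicates 1, 2 and 3. Thus Rac2 reads outnumbered Rac1 reads in every WGP library, whereas they were about equal after PBS. Reads also depend on gene length, and per length, as given below, Rac2 lay above Rac1 in both groups. The log2 difference was 0.71, and the exact two-sided permutation p was 0.1, the smallest that 3 against 3 libraries can give. The count ratio of Cyba to Cybb was 0.183, 0.196 and 0.179 after WGP and 0.262, 0.252 and 0.244 after PBS, a log2 difference of -0.44 (exact permutation p = 0.1). The membrane partners therefore did not rise in proportion in these libraries. The count ratio of Ncf4 to Ncf1 was 0.658, 0.545 and 0.505 after WGP and 0.413, 0.453 and 0.503 after PBS. Here the groups all but touched, with a log2 difference of 0.31 (exact permutation p = 0.1) that was 0.21 without WGP replicate 1. Adjusted over the 3 ratios, each p was 0.1.

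**Figure D3:**
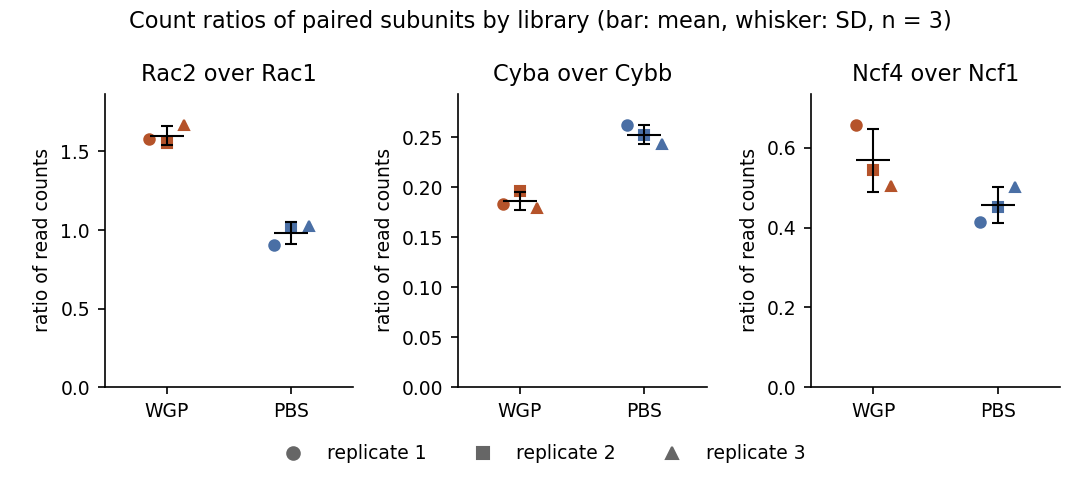
Ratio of read counts (vertical axes from 0) for Rac2 over Rac1, Cyba over Cybb and Ncf4 over Ncf1 in each WGP and PBS library, with mean and SD. Rac2 over Rac1 averages 1.60 after WGP and 0.982 after PBS, and Cyba over Cybb averages 0.186 and 0.253.

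Levels of different genes can be compared only per length. Per kilobase of exon union, Cyba stood at 486 ± 21 CPM after WGP and 419.8 ± 16.7 CPM after PBS, and Cybb at 468 ± 8.01 CPM after WGP and 298 ± 22.6 CPM after PBS. After WGP these membrane chains were within their spread of each other per length, whereas after PBS the level of Cyba lay above that of Cybb. Rac2 followed, with 246 ± 5.85 CPM per kilobase after WGP and 146 ± 11.5 after PBS. Ncf4 had 137 ± 8.06 CPM per kilobase after WGP and 81.6 ± 7.24 after PBS, Ncf1 had 134 ± 16.2 and 98.7 ± 2.47, and Rac1 had 106 ± 1.47 and 103 ± 1.58. After WGP Ncf4 and Ncf1 were within their spread of each other. After PBS the order of the last 3 was Rac1, Ncf1 and Ncf4, and the levels of Rac1 and Ncf1 were close together. Over the longest coding transcript in place of the exon union, a choice made after the data were seen, the order after WGP was the same. Cyba was then at 679 and Cybb at 572 CPM per kilobase after WGP, no longer within their spread, and after PBS Rac1, at 111, came below Ncf1 at 125 and Ncf4 at 113.

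Profiles were compared over the 6 libraries, each gene centred on its own mean log2 CPM. They were not scaled, so a like log2 fold change brings genes close, and it was 0.75 for both Ncf4 and Rac2. Ncf4 and Rac2 had the most alike profiles among the members, with a root-mean-square difference of 0.053, and each was 6th of 9325 well-expressed genes in likeness to the other. Cybb was 21st in likeness to Rac2 and 29th to Ncf4, whereas Cyba was 2136th to Rac2. Both Ncf4 and Rac2 lie on chromosome 15, with 296586 bases between them. Of the 10 genes of the table in that gap 7 were tested, and 0 passed the edgeR test. At an unadjusted p under 0.05 there were 3, and DESeq2 and limma-voom each called 0 while limma-voom with quality weights called 2. Over all genes DESeq2 called 4121, limma-voom 3960 and limma-voom with quality weights 4305, and edgeR called 31% of the 12305 tested. The 3 genes at an unadjusted p were not set against all tested genes. Counts over 7 genes are too few to set this gap apart from other genes. The cytokine receptor chain gene Csf2rb, one of the 7, was at 587 ± 7.72 CPM after WGP and 504 ± 65.7 CPM after PBS. The genes most like each member were Trappc1 and Plcg2 for Cybb (0.024 and 0.025), Uba1 and Zfp706 for Cyba (0.023 and 0.029), and Snx20 and Pcif1 for Ncf1 (0.028 and 0.034). For Ncf4 they were Elk3 and Aldh2 (0.033 and 0.039), for Rac1 Commd7 and Ehmt2 (0.015 and 0.020), and for Rac2 Gpr35 and Ubxn8 (0.036 and 0.044). Plcg2, the phospholipase that acts downstream of Syk, had 792 ± 28.8 CPM after WGP and 507 ± 34.0 CPM after PBS.

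The genes around the oxidase were read from 8 lists, with 90 tested genes of which 42 rose (46.7%) and 14 fell (15.6%). Among the 55 with a mean of at least 100 CPM, 54.5% were higher and 10.9% lower, against 38.6% and 11.1% of all tested genes at that level, so the counts of single lists are to be read against those shares. Of 9 other NADPH oxidase family genes 2 were tested, Nox4 and Noxo1, and 0 passed in edgeR. Nox4, an oxidase made by endothelial and mesenchymal cells, was at 0, 0.53 and 0 CPM in the WGP libraries and 2.19, 1.14 and 1.33 CPM in the PBS libraries, with an edgeR p of 0.0186 (adjusted p = 0.057). It passed with DESeq2 and limma-voom, among others, and when WGP replicate 2 was left out. Noxo1, an organiser like Ncf1 whose exons overlap those of Tbl3, averaged 2.07 ± 0.85 CPM after WGP and 1.63 ± 1.21 CPM after PBS. Nox3, Duox1, Duox2, Duoxa1, Duoxa2 and Noxa1 had 0 counts in every library, which allows up to 3 counts in each, and Nox1 had 7 counts in all.

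Genes of assembly, maturation and charge balance went both ways, 4 higher and 3 lower of 11, with a median log2 fold change of 0.14. Nrros, which limits the level of the Cybb protein, had 642 ± 11.4 CPM after WGP and 458 ± 48.2 CPM after PBS (log2 fold change 0.49 ± 0.08, adjusted p = 0.0014). The small GTPase genes Rap1b (0.42 ± 0.09) and Rap1a (0.40 ± 0.09) rose, the product of Rap1a being known to bind the flavocytochrome in human neutrophils, as did the phospholipase gene Pla2g4a (0.40 ± 0.13, adjusted p = 0.036, kept under 8 of 18 alternatives). The Pla2g4a call was lost when any 1 library other than WGP replicate 1 was left out, and with the replicate block, the Y-linked covariate, upper quartile scaling or library sizes alone. The proton channel gene Hvcn1, whose product balances the charge moved by the oxidase, had 15.2, 48.4 and 22.2 CPM in WGP replicates 1, 2 and 3, and 165, 133 and 112 CPM in PBS replicates 1, 2 and 3. The groups did not overlap and Hvcn1 fell (log2 fold change -2.25 ± 0.50, adjusted p = 0.031). The call was lost without WGP replicate 3 or any 1 PBS replicate, and with the replicate block or the Y-linked covariate. The adaptor genes related to Ncf1, Sh3pxd2b (-2.06 ± 0.13, adjusted p = 1.4e-05) and Sh3pxd2a (-0.74 ± 0.14), fell. Cybc1, whose product is needed for the Cybb protein to be made, was at 150.4 ± 13.7 CPM after WGP and 182 ± 26.0 CPM after PBS and did not pass (adjusted p = 0.078).

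Genes listed for the supply of NADPH, the fuel of the oxidase, rose in 8 of 11 cases and none fell, with a median log2 fold change of 0.54. Not every enzyme of this list makes NADPH itself, and transketolase does not. The transketolase gene Tkt had 639.6 ± 16.7 CPM after WGP and 390.4 ± 4.84 CPM after PBS (log2 fold change 0.71 ± 0.06, adjusted p = 4.3e-05). G6pdx, the first enzyme of the pentose phosphate pathway, had 401 ± 8.89 CPM after WGP and 254 ± 20.6 CPM after PBS (0.66 ± 0.08). H6pd (0.74 ± 0.07), its relative in the endoplasmic reticulum, Idh1 (0.78 ± 0.08), the cytosolic isocitrate dehydrogenase, and Pgd (0.61 ± 0.07), the next dehydrogenase of that pathway, rose too. Exons of G6pdx overlap those of Ikbkg and those of Tkt a microRNA gene. Without WGP replicate 2, 1 gene of this list, Me1, fell. Me1 was near 0, at 0, 0.84 and 0 CPM in WGP replicates 1, 2 and 3. In PBS replicates 1, 2 and 3 it had 0.87, 1.19 and 0.62 CPM. The left-out library was the only WGP library with Me1 reads.

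Genes listed as Rac exchange factors, which load Rac with GTP, or as their Elmo partners rose in 8 of 13 cases and 1 fell, with a median of 0.28. The 8 were 5 without WGP replicate 3 or without PBS replicate 1, and 4 with library sizes alone. Tiam1 had 246 ± 17.3 CPM after WGP and 158 ± 17.3 CPM after PBS (0.64 ± 0.09, adjusted p = 0.00053), Elmo2 rose by 0.52 ± 0.08 and Dock1 by 0.48 ± 0.09, while Vav2 fell (-0.68 ± 0.10, adjusted p = 0.00068). The list of Rac inhibitors and GTPase-activating proteins, not all of its genes being of those kinds, had 6 that rose and 2 that fell of 12. Its median was 0.20. Arhgdib, a GDP dissociation inhibitor of blood cells that holds Rac in the cytosol, had 949 ± 44.0 CPM after WGP and 588 ± 40.0 CPM after PBS (0.69 ± 0.07, adjusted p = 0.00012). Arhgap15 (0.95 ± 0.10) and Bcr (0.72 ± 0.12), GTPase-activating proteins for Rac, rose, and Arhgap22 fell (-2.38 ± 0.18).

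Of 15 kinases and adaptors upstream of the oxidase 7 rose and 3 fell, with a median of 0.20. The 7 were 4 without WGP replicate 2 or WGP replicate 3 and 3 without PBS replicate 1, and also 3 under upper quartile or no further scaling. The 3 were 1 without WGP replicate 3 or PBS replicate 1, or with the Y-linked covariate. Pik3cd, the leukocyte form of phosphoinositide kinase, had 685 ± 71.2 CPM after WGP and 392 ± 31.7 CPM after PBS (0.80 ± 0.09, adjusted p = 0.00014). Irak4 (0.50 ± 0.07) and Prkcb (0.46 ± 0.08), whose kinases can phosphorylate the Ncf1 protein, rose and Prkca fell (-1.55 ± 0.27). Syk, the kinase next to dectin-1, was at 1056 CPM after WGP and 1050.4 CPM after PBS and did not pass (adjusted p = 0.95).

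Of 15 transcription factors known to act on oxidase genes 5 rose and 2 fell, with a median of 0.24. Irf8 had 290, 394 and 344 CPM in WGP replicates 1, 2 and 3, and 173, 139 and 192 CPM in PBS replicates 1, 2 and 3 (1.03 ± 0.14, adjusted p = 0.0014). Spi1, which encodes PU.1, had 599 ± 32.7 CPM after WGP and 479 ± 25.6 CPM after PBS (0.32 ± 0.07, adjusted p = 0.0069). Cux1 (0.43 ± 0.09), a repressor of CYBB in humans, Elf1 (0.38 ± 0.09) and Nfkb1 (0.24 ± 0.07) rose, and Jun (-0.87 ± 0.12) and Cebpa (-0.53 ± 0.11) fell. The call of Nfkb1 was lost without WGP replicate 2 or 3 or PBS replicate 1 or 2, and under upper quartile or no further scaling. Of 11 genes that handle superoxide and peroxide 4 rose and 3 fell, with a median of 0.09. Of all tested genes 15.2% were higher and 15.7% lower. Among those with a mean of at least 100 CPM it was 38.6% and 11.1%, and genes of this list lay on both sides of that level. The peroxiredoxin gene Prdx5 had 456 ± 33.6 CPM after WGP and 239 ± 17.1 CPM after PBS (0.93 ± 0.08), Prdx2 (0.43 ± 0.08) and Gpx4 (0.35 ± 0.08) rose, and the catalase gene Cat fell (-0.40 ± 0.08). Nos2 was left out by the low-count filter, with 3, 353 and 18 counts in WGP replicates 1, 2 and 3, and 6, 0 and 0 counts in PBS replicates 1, 2 and 3. Most of its counts thus came from WGP replicate 2. Exons of Hvcn1, Cybc1, Me1, Arhgdib, Arhgap15, Arhgap22, Irak4, Prkca, Cux1, Elf1, Jun, Cebpa, Prdx2, Prdx5, Elk3, Aldh2, Pcif1, Zfp706, Csf2rb, Csf1r and Prtn3 also overlap those of another gene, and the strand setting of the counting is unknown, so these values may hold reads of both.

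**Figure D4:**
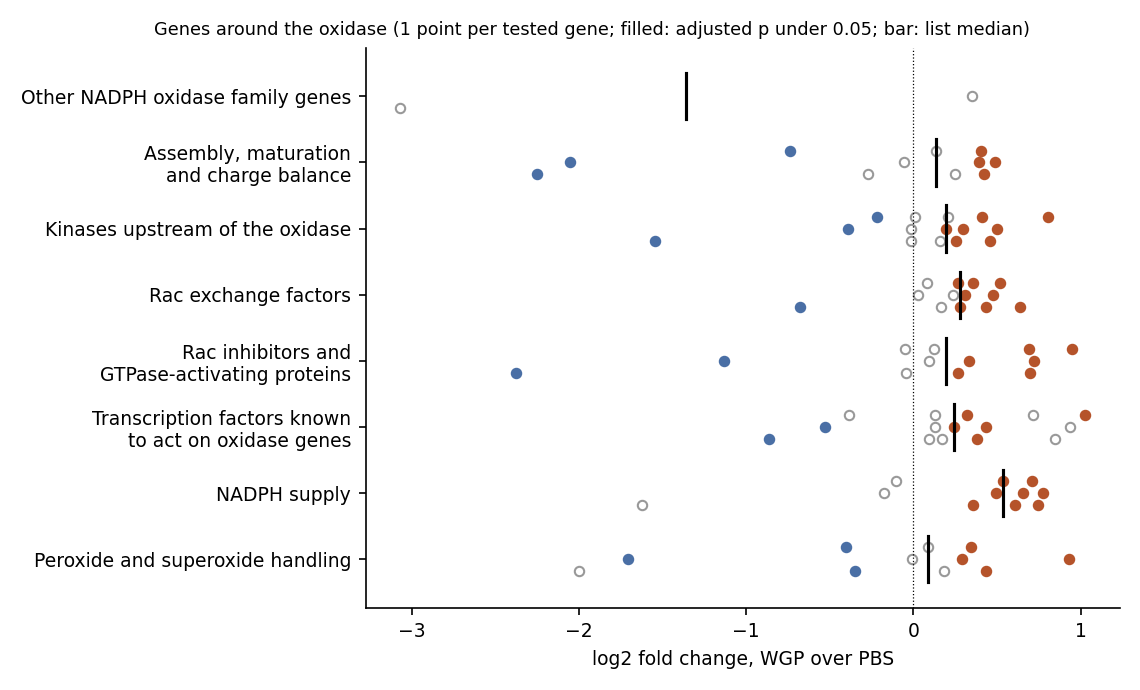
Log2 fold change of WGP over PBS on the horizontal axis for each tested gene of the 8 lists, filled where the adjusted p was under 0.05 (orange higher, blue lower), with the median of each list as a bar. NADPH supply has the highest median, at 0.54, and the 2 other NADPH oxidase family genes the lowest, at -1.36.

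Marker transcripts of other cells moved with the groups. All 10 classical monocyte markers rose, and their summed level was 11460.0 to 14830.0 CPM after WGP and 4951 to 5741 CPM after PBS. Of 13 alveolar macrophage markers 12 fell, with sums of 1269 to 1602 CPM after WGP and 4930.0 to 7505 CPM after PBS. Interstitial macrophage markers summed to 7276 to 8518 CPM after WGP and 9019 to 10150.0 CPM after PBS. Markers of other lung cells were lower after WGP, and all were a small part of the RNA. Epithelial markers (6 lower of 7) summed to 14.5 to 59.8 CPM after WGP and 267 to 566 CPM after PBS. Endothelial markers (4 lower of 5) summed to 91.1 to 105 CPM after WGP and 275 to 302 CPM after PBS, and dendritic cell markers (3 lower of 7) to 86.2 to 124 CPM after WGP and 217 to 274 CPM after PBS. Nonclassical monocyte markers overlapped between the groups, with sums of 8097 to 10110.0 CPM after WGP and 8711 to 10430.0 CPM after PBS. T and NK cell markers (18.1 to 74.1 CPM after WGP, 53.3 to 137 CPM after PBS) and B cell markers (26.6 to 72.8 CPM after WGP, 45.5 to 70.1 CPM after PBS) overlapped too. No list had a marker at 0 in all libraries. Their part in the higher oxidase transcripts was not tested.

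Neutrophils hold much of this enzyme. Their 15 markers summed to 1670.0, 2487 and 3215 CPM in WGP replicates 1, 2 and 3, and 2133, 2904 and 1291 CPM in PBS replicates 1, 2 and 3. The groups overlapped, and 2 of 14 tested markers, Mmp8 and Prtn3, rose. Most of the sum came from Csf3r (583 to 1221 CPM over the 6 libraries), S100a9 (278 to 818 CPM), S100a8 (119.9 to 408 CPM) and Mmp9 (122 to 343 CPM), while Ly6g lay at 1.58 to 3.28 CPM after WGP and 1.14 to 3.27 CPM after PBS. The part of neutrophil RNA in the oxidase transcripts was not tested.

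**Figure D5:**
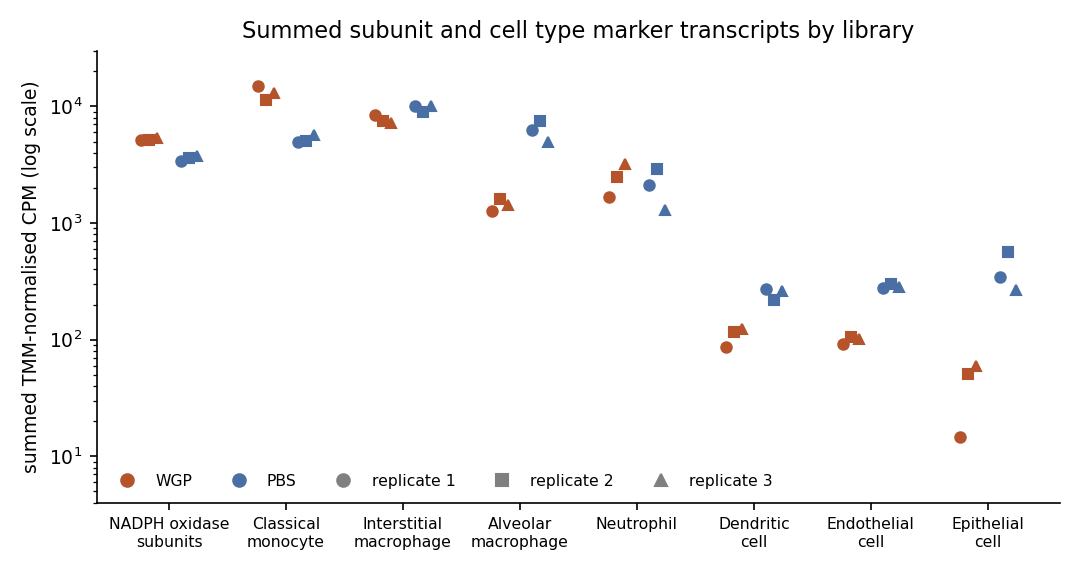
Summed TMM-normalised CPM (vertical axis, log scale) of the 6 oxidase subunits and of 7 marker lists in each WGP and PBS library. The subunit sum is 5142 to 5357 CPM after WGP and 3415 to 3785 CPM after PBS, the classical monocyte sum separates the groups in the same direction, and the neutrophil sums overlap.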

How the data were processed

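The authors deposited whole-number read counts for each Ensembl gene. HTSeq 0.10.0, FastQC 0.10.1 and the builds GRCm38 and mm10 were used per the submitters' processing notes. No source used here gives the aligner, annotation or strand setting. Per the labels' protocols the RNA was polyA-selected. GENCODE M21 (GRCm38) matched 99.9% of the 21965 identifiers and gave symbols and coordinates. WGP was compared with PBS by edgeR 4.0.16 (R 4.3.3) after filterByExpr and TMM, with its robust two-sided quasi-likelihood test, p-values adjusted by Benjamini-Hochberg over 12305 genes and a threshold of 0.05. The SE is the log2 fold change over the square root of F. No library repeated another: pairs within a group had a chi-square of 12.6 to 22.7 per degree of freedom. The members and lists were chosen with earlier results of these data known, and no test was made over a list.

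Named were the 6 members, up to 4 genes of each list by smallest p, every list member that passed where 5 or fewer did, and the 2 genes most like each member in profile with a mean of at least 5 CPM. Rap1a, Pla2g4a, Hvcn1, Cybc1, Pgd, Spi1, Elf1, Nfkb1, Syk, Nos2, Me1, Csf2rb and single markers were chosen after their values were seen. Same-numbered libraries did not deviate together (correlations of -0.08 to -0.05). Alternatives were other scalings, low-count filters, DESeq2 1.42.0, limma-voom (limma 3.58.1), a replicate block, a Y-linked covariate and leaving out libraries. Some genes of the lists first drawn up are not reported here.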

Additional observations from a re-analysis of the deposited data

How the results depend on the processing

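Cybb, Ncf4 and Rac2 passed under all 18 alternatives, with log2 fold changes of 0.55 to 0.73, 0.65 to 0.82 and 0.65 to 0.79. Ncf1 passed under 17, and not with PBS replicates 1 and 3 both left out (0.41, adjusted p = 0.071), which leaves 1 PBS library assumed to vary like the WGP libraries. That alternative also gave 3 changed members, all higher, 34 changed genes in the 8 lists in place of 56, and 1820 changed genes in all. Cyba passed under 9 of 18. It was 0.15 with upper quartile scaling, 0.11 with library sizes alone, 0.21 with the replicate block, 0.23 with PBS replicates 1 and 3 both left out, and 0.18 to 0.24 when 1 library was left out. Rac1 passed under none, at -0.012 with upper quartile scaling and -0.054 with library sizes alone, which moved the median of all tested genes to -0.12, against -0.021. Leaving out 1 library gave 2491 to 3717 changed genes, 4 to 5 changed members and 40 to 54 changed list genes. The replicate numbers are shared by name only. With them as a block 1584 genes were higher and 1601 lower, 4 members and 52 list genes passed, and the log2 differences of the ratios were 0.71, -0.44 and 0.31. Settings that leave out libraries rest on fewer samples, and the cause of the other lost calls was not tested. Counting error is small at these levels, and depth limits only the genes near 0.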
